A study of Mus musculus with 5 samples.

Results

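Skin of Xpa mutant mice 24 h after UVB was set against normal, unirradiated skin to describe the late state of the mutant tissue. The comparison used 1 microarray of back skin from an Xpa mutant sampled 24 h after UVB at a dose of 1 kJ/m2, and 1 array of skin from wild type (WT) without UVB, both labelled as hairless albino strain. Genotype and UVB differ together between these arrays, and unirradiated mutant skin was not analysed here, so an effect of the mutation cannot be told apart from an effect of the radiation. The members were the gene probes that were not masked on either array and that the scanner software had not marked with its low-signal flag on at least 1 of them. They numbered 10045 of 34967 gene probes, and 7370 genes with a symbol were compared, of 18563 with a named probe. The other 3 arrays of the study (WT and Xpa mutant skin at 3 h, WT skin at 24 h, all after the same dose) are given beside them where they place a value. The allele of the mutants, the sex of the animals and whether an array held 1 mouse or a pool are not given in the sources used here.

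Xpa encodes a protein that gathers at bulky DNA lesions such as UVB photoproducts and is needed for nucleotide excision repair, which removes them. People who lack it have xeroderma pigmentosum. After UVB, keratinocytes release chemokines and alarmins that draw in neutrophils and monocytes, switch from the keratins of normal layers to those of wounded epidermis, and rebuild the cornified envelope, the protein shell of the outermost cells. Repair-deficient skin keeps its lesions and is known for strong and long-lasting UVB inflammation.

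Both arrays read as skin. The basal keratin gene Krt14 had log2 levels of 12.61 without UVB and 12.45 in the mutant at 24 h, and Krt10, the keratin of the layers above, 14.03 and 12.46. Of all gene probes, 8816 without UVB and 8492 in the mutant were above background, and the 5 arrays had median local backgrounds of 92 to 94 intensity units. Levels are log2 normalized intensities, in which the low-signal flag was given up to 7.43 on the unirradiated array and 7.49 on the mutant array, and the lowest values without it were 7.01 and 7.04. A difference is the mutant level minus the unirradiated level, and a gene was counted as higher or lower at 1 log2 unit or more (2-fold) by its measured value, also where only a bound on the fold can be given. Each group has a single array, so no test, error or replicate check could be given and every difference compares 2 arrays. Spiked control probes, 30 with 10 spots each, had a median SD of 0.14 between spots within an array, which does not measure the spread between arrays. Their differences between the 2 arrays ran from 0.21 to 2.04, with an SD of 0.31 over probes.

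The targeted gene, Xpa, had a log2 level of 7.49 in unirradiated WT skin and of 6.42 in the mutant at 24 h. WT skin had 7.13 at 3 h and 7.55 at 24 h, and the mutant at 3 h had 6.64. The spot was above background only on the unirradiated and the 24 h WT arrays, so the difference between the 2 arrays is at least 1.36-fold. Whether the probe lies in the mutated part is not known here, and the check is weak at this level. A sex-linked difference was present too. Eif2s3y, a Y-linked translation factor gene, was 7.99 on the mutant array at 24 h and between 6.42 and 6.59, below background, on the other 4. Xist, the non-coding RNA that silences an X chromosome in females, was 6.41 on that mutant array and 7.39 on the unirradiated one. The low-signal flag was given up to 7.43 on the unirradiated array, so both Xist values are near background. The sex of the animals may thus differ between the arrays compared, and this could not be told apart from genotype and UVB. Its part in the results was not tested.

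In the mutant at 24 h, 8 of 13 measured alarmin and antimicrobial genes, 10 of 11 small proline-rich genes and 3 of 4 wound keratin genes were higher than in normal skin. The alarmin and antimicrobial list includes the envelope genes Lce3a, Lce3b and Lce3c. Of the cornified layer genes 19 of 31 were lower, as were 9 of 14 sebaceous gland genes. Saa3, S100a8 and Krt6a were at least 17.3-fold, at least 15.2-fold and 12.1-fold higher. Lce1m, a late cornified envelope gene, was 27-fold lower and Ccl27a, the chemokine by which keratinocytes attract skin-homing T cells, 12.8-fold lower. Of 7370 genes, 242 were higher by 2-fold or more (3.28%) and 292 lower (3.96%), with a median difference of 0.01 and a robust SD of 0.41. These shares are the background to the list counts of this comparison. A gene dim on either array was compared only because the other was above background. For 163 of the higher genes and 156 of the lower ones the dimmer array was below background. Their folds are given as bounds, written "at least", and 62 and 48 genes had a bound of 2-fold or more. Among 5499 genes above background on both arrays, 79 (1.44%) were higher and 136 (2.47%) lower, 3.91% in all. Against WT skin at 24 h, which shares the mutant array, 118 of 7167 genes were higher in the mutant (1.65%) and 195 lower (2.72%), 4.37% in all. The cut is not a gap in the data, since 149 genes had a difference of size 0.9 to 1 and 127 of size 1 to 1.1.

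The scaling sets the balance of higher and lower genes. On the mutant array the spiked controls read higher, with a median difference of 0.44. Scaling the arrays to them placed the median of all genes at -0.45 and gave 96 higher and 929 lower genes, so that 9.37% of the counted genes were higher in place of 45.3%. Relative to that median the counts were 238 and 293. All differences below are relative to the bulk of genes, and every list median between 0 and 0.45 given here lay below 0 under the spike scaling. Of 48 genes past 2-fold that were followed across settings, Il1b (0.93), Cdkn1a (0.79) and Krt6b (0.89) fell short of it there, and Xpa (-0.66) and Il1b (0.95) did so without background correction.

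**Figure D1:**
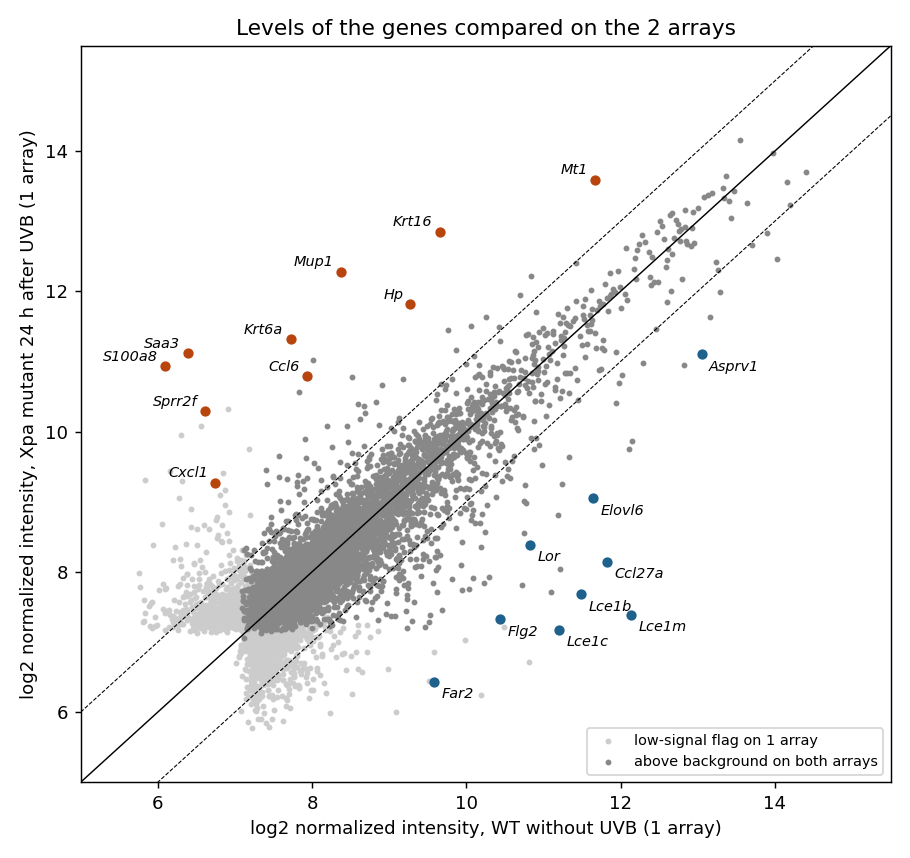
Log2 normalized intensity of each of the 7370 genes compared, on the unirradiated WT array (x axis) and on the Xpa mutant array 24 h after UVB (y axis). Dark grey points are above background on both arrays and light grey points carry the low-signal flag on 1; the solid line marks equal levels, the dashed lines a difference of 1, and coloured points are named genes (orange higher, blue lower). Saa3 and S100a8 stand highest above the line among the genes dim without UVB, and Lce1m lies farthest below it.

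Saa3 and S100a8 had the highest bounds among the higher genes. S100a8 and S100a9 encode the subunits of calprotectin, an alarmin of keratinocytes and neutrophils. S100a8 had log2 levels of 6.10 without UVB, 7.99 and 7.28 in WT and mutant skin at 3 h, 9.48 in WT at 24 h and 10.93 in the mutant at 24 h. S100a9 was below background on the first 3 of these arrays, 9.20 in WT at 24 h and 10.33 in the mutant, at least 9.96-fold above unirradiated skin. Saa3, a serum amyloid A gene made in inflamed tissue, was 6.39 without UVB, 7.88 and 7.72 at 3 h, 8.76 in WT at 24 h and 11.12 in the mutant. For each of the 3 genes the mutant array at 24 h was the highest of the 5. Slpi, a protease inhibitor of inflamed epithelia, was 9.89 in WT at 24 h and 9.95 in the mutant, at least 7.66-fold above the unirradiated array. The defensin genes differed in direction, with Defb3 at least 2.60-fold higher and Defb4 1.83-fold lower. Of the 20 genes listed as alarmins and antimicrobials, 17 had a probe and 13 were measured on at least 1 of the 2 arrays. The list includes the late envelope genes Lce3a, Lce3b and Lce3c, of which Lce3a and Lce3c are among the higher genes. Of these 8 were higher by 2-fold or more and 0 lower. Their median difference was 1.46. Setting the dim genes to their bounds gave a median of 0.89. It was 0.53 over the 5 genes above background on both arrays, Lce3b and Lce3c among them.

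Hp, Lrg1, Serpina3n and Mup1 are described because they lead the ranking of all genes, so that they are high says nothing of a group. Hp, which encodes the haemoglobin-binding protein haptoglobin, was 9.28 without UVB, 9.60 and 9.97 in WT at 3 h and 24 h, 10.24 in the mutant at 3 h and 11.82 in the mutant at 24 h, a 5.83-fold difference. Lrg1, a leucine-rich acute-phase glycoprotein gene, was 6.67-fold higher, at 10.57 against 7.83. Serpina3n, a serine protease inhibitor gene, was at least 5.94-fold higher, at 9.76 in the mutant and 8.34 in WT at 24 h. Orm1, another acute-phase gene, went the other way and was 2.34-fold lower. Mup1, a major urinary protein gene of a family of near copies, was 14.9-fold higher. It was 8.38 in unirradiated WT skin, 10.85 at 3 h and 9.77 at 24 h in WT, and 12.68 and 12.28 at those times in the mutant, so both mutant arrays lay above all 3 WT arrays.

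The promoter of Saa3 is shown as an example from this group, with a C/EBP motif in capitals (TTGCNNAA on either strand). C/EBP factors drive acute-phase genes. The window of RefSeq, GRCm38.p6, chr7:46715627-46715926, minus strand, spans the gene's start, and the match begins at position -99 from it. Of all promoters of this length 10.8% held the motif, as did 8.92% of those of the genes compared, 14.1% of those of the higher genes and 10.8% of those of the lower genes.
Saa3: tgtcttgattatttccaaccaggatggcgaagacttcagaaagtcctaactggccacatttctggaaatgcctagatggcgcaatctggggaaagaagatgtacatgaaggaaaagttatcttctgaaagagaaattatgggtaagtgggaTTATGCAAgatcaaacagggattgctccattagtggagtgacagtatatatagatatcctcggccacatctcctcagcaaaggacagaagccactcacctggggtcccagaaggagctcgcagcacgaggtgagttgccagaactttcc

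Most measured chemokine genes of the neutrophil and platelet list were higher. Cxcl1 and Cxcl2 encode ligands of the neutrophil receptor Cxcr2. Cxcl1 had log2 levels of 6.75 without UVB, 8.72 and 8.35 in WT at 3 h and 24 h, 8.17 in the mutant at 3 h and 9.27 in the mutant at 24 h. It was at least 4.8-fold above unirradiated skin, and its mutant 24 h level was the highest of the 5 arrays. Cxcl2 was 8.19 in WT and 7.30 in the mutant at 3 h, below background in WT at 24 h, and 8.17 in the mutant at 24 h, at least 2.23-fold above unirradiated skin. Cxcl3, another ligand of that receptor, and the platelet chemokine gene Ppbp were above background on the mutant array at 24 h and below it on the other 4, at least 1.88-fold and at least 3.03-fold higher. Pf4, the other platelet chemokine gene, was 4.14-fold higher. Cxcl15, a lung chemokine gene, was at least 1.44-fold lower, and Cxcl5 and the receptors Cxcr1 and Cxcr2 gave no value above background. Of the 9 genes of this list 6 were measured, 5 of them higher by 2-fold or more in measured value and 1 lower, with a median of 1.84 and of 1.38 with dim genes at their bounds.

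The promoters of Cxcl1 and Cxcl2 are shown because both genes were higher together, and both hold the NF-kB consensus, here in capitals. NF-kB is the transcription factor that turns on many inflammatory genes. The windows are RefSeq, GRCm38.p6, chr5:90890995-90891294 for Cxcl1 and chr5:90903649-90903948 for Cxcl2, both on the plus strand. The matches begin at positions -71 and -97 from the gene starts, and none overlapped a match to the AP-1, STAT or C/EBP motifs. The consensus, searched on both strands, was present in 5.81% of all promoters of this length, 7.19% of those of the genes compared, 9.69% of those of the higher genes and 8.04% of those of the lower genes.
Cxcl1: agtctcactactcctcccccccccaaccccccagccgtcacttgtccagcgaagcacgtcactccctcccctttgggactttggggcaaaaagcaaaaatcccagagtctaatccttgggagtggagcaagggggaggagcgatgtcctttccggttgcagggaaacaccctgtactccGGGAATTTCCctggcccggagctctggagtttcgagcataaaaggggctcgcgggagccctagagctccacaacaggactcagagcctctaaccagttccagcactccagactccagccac
Cxcl2: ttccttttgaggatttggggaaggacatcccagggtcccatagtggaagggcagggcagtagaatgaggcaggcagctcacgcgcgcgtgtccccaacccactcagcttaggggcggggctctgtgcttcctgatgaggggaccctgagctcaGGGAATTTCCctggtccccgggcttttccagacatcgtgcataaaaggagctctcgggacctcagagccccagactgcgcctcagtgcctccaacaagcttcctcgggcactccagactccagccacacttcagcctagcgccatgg

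Among the other chemokines, 13 of 28 with a probe were measured. Of these 6 were higher and 1 lower, beside 3.28% and 3.96% of all genes compared. All the higher ones but Ccl6 were below background without UVB. The median was 0.57, and 0.14 over the 8 above background on both arrays. Ccl6 and Ccl9, made by myeloid cells, were 7.23-fold and at least 4.14-fold higher. Ccl6 was 7.94 without UVB, 8.50 and 8.47 in WT and mutant skin at 3 h, 9.40 in WT at 24 h and 10.79 in the mutant at 24 h. The monocyte attractants Ccl7, Ccl8 and Ccl2 were higher by at least 4.89-fold, 3.17-fold and 2.86-fold. Ccl7 was as high in WT at 3 h (9.28) as in the mutant at 24 h (9.30), and lower in WT at 24 h (7.96). Ccl20, which attracts Ccr6-bearing cells, was at least 1.5-fold higher. Ccl27a was 11.83 without UVB and 11.80 in WT at 3 h, 10.00 in the mutant at 3 h, 10.03 in WT at 24 h and 8.15 in the mutant at 24 h, the lowest of the 5. In the gene table it lies on the chromosome of Xpa, 21 places from it among measured genes. Ccl19, a chemokine gene 19 places from Xpa, had a difference of 0.06.

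Of 43 cytokine and mediator genes with a probe 28 were measured. Of these 6 were higher and 2 lower, beside 3.28% and 3.96% of all genes compared. All the higher genes but Icam1 were below background without UVB. The median of the list was 0.25, and 0.06 over the 13 above background on both arrays. Il6 was at least 1.94-fold and Il1b at least 1.85-fold higher. Il1b was 7.43 in WT at 3 h and 7.89 in the mutant at 24 h and below background on the other 3 arrays. Il1r1, the signalling receptor for interleukin 1, was at least 2.31-fold and Il19, a member of the interleukin 10 family, at least 1.71-fold higher. Socs3, which damps cytokine receptor signals, was at least 2.46-fold higher. Icam1, the adhesion molecule that leukocytes bind, was 3.13-fold higher, at 7.68 without UVB and 9.32 in the mutant. The 2 lower genes belong, like Il1b, to the interleukin 1 family. Il18 was 2.64-fold lower and Il1f5, the antagonist of interleukin 36, 2.89-fold lower. Tnf and Ptgs2, the inducible prostaglandin synthase gene, were below background or masked on both arrays.

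**Figure D2:**
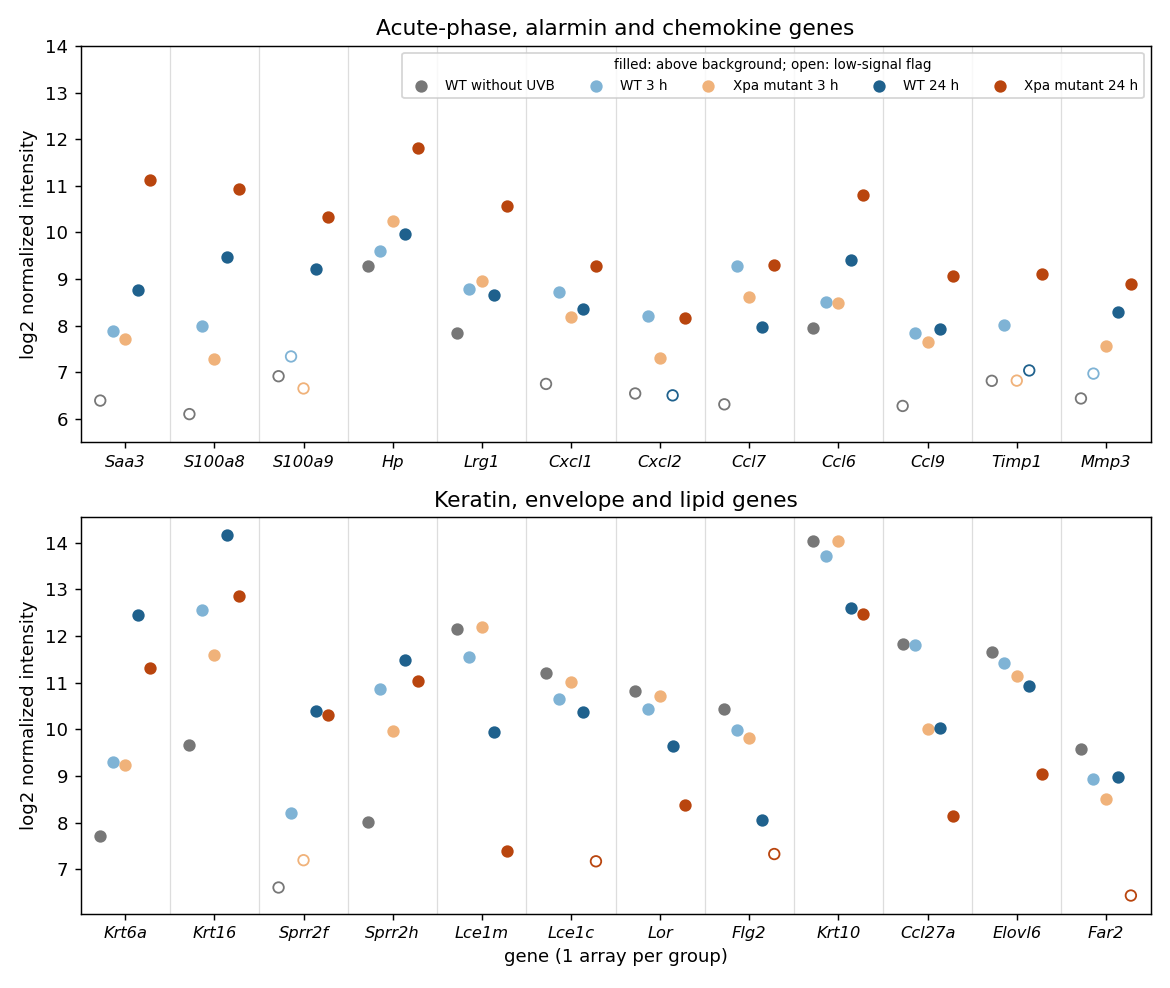
Log2 normalized intensity (y axis) of 24 named genes on each of the 5 arrays, 1 point per array, coloured by group. Open points carry the low-signal flag. In the upper panel the mutant array at 24 h is highest for all genes shown except Cxcl2, where the WT array at 3 h is level with it (8.19 and 8.17); in the lower panel the same array is lowest for Lce1m, Lce1c, Lor, Flg2, Krt10, Ccl27a, Elovl6 and Far2.

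Macrophage marker genes were mostly higher. Of 19 with a probe 10 were measured, 8 were higher by 2-fold or more and 0 lower, and all 10 differences were above 0, with a median of 1.1 and of 1.09 over the 7 above background on both arrays. The complement genes C1qa, C1qb and C1qc were 2.13-fold, 2.67-fold and 2.28-fold higher, with mutant levels of 9.68, 9.23 and 8.56 beside WT levels of 9.67, 9.09 and 8.63 at the same time. The endotoxin co-receptor gene Cd14 was at least 3.58-fold and the scavenger receptor gene Msr1 at least 1.67-fold higher. Adgre1, Cd163, Itgam, Ccr2 and 5 further markers were below background or masked on both arrays. The summed background-subtracted level of the list was 1732 intensity units without UVB, 2470 and 3871 in WT at 3 h and 24 h, and 2624 and 4256 in the mutant. In whole skin, more cells of a type and more RNA per cell cannot be told apart.

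Other leukocyte lists were mostly below background. Of 16 neutrophil markers 4 were measured, with Retnlg, a resistin-like gene of neutrophils, at least 2.25-fold and the integrin gene Itgb2 at least 1.30-fold higher, and Stfa2 and Stfa3, which epidermis also makes, 1.52-fold and 1.08-fold. Mpo, Elane, Ngp, Ltf, Csf3r and Mmp8 were below background or masked on both arrays. The summed level of the list was 1979 without UVB. It was 2714 and 2415 in WT at 3 h and 24 h, and 1994 and 2594 in the mutant. Of 6 measured genes of the Langerhans and dendritic cell list 1, H2-Eb1, was lower by 2-fold or more and 0 were higher, and all 6 differences were below 0, with a median of -0.73. The class II antigen presentation genes H2-Eb1, H2-Aa and H2-Ab1 were 2.00-fold, 1.92-fold and 1.91-fold lower. H2-Aa was 10.01 without UVB, 10.19 on both arrays at 3 h, 9.91 in WT at 24 h and 9.06 in the mutant at 24 h, which stood below the other 4. Cd207, the langerin gene that marks Langerhans cells, was below background or masked on both arrays. Of 3 measured T cell markers 1 was lower and 0 higher, with a median of 0.05. The lower gene, the T cell receptor component Cd3g, was at least 2.09-fold lower, while Cd247 and Thy1 had differences of 0.05 and 0.26. Mast cell genes had a median of 0.03 over 6.

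The epidermal differentiation complex, a block of neighbouring genes for the cornified envelope on chromosome 3, held many of the genes past 2-fold in both directions. This block, taken here from S100a1 to S100a10 in the gene table after its values had been seen, had 60 genes with a probe and 48 measured. Of these 19 were higher by 2-fold or more and 18 lower, 77.1% in all, beside 7.25% of all genes compared and 6.37% of the other 361 measured genes of the chromosome. The split followed gene family. The Sprr2 genes, small proline-rich precursors of the envelope, were higher and the Lce1 genes, late envelope precursors, were lower, while the Lce3 genes, which are induced on barrier damage, were higher, with Lce3b short of 2-fold at 0.73. Members of these families are near copies, and cross-hybridization between them was not tested.

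**Figure D3:**
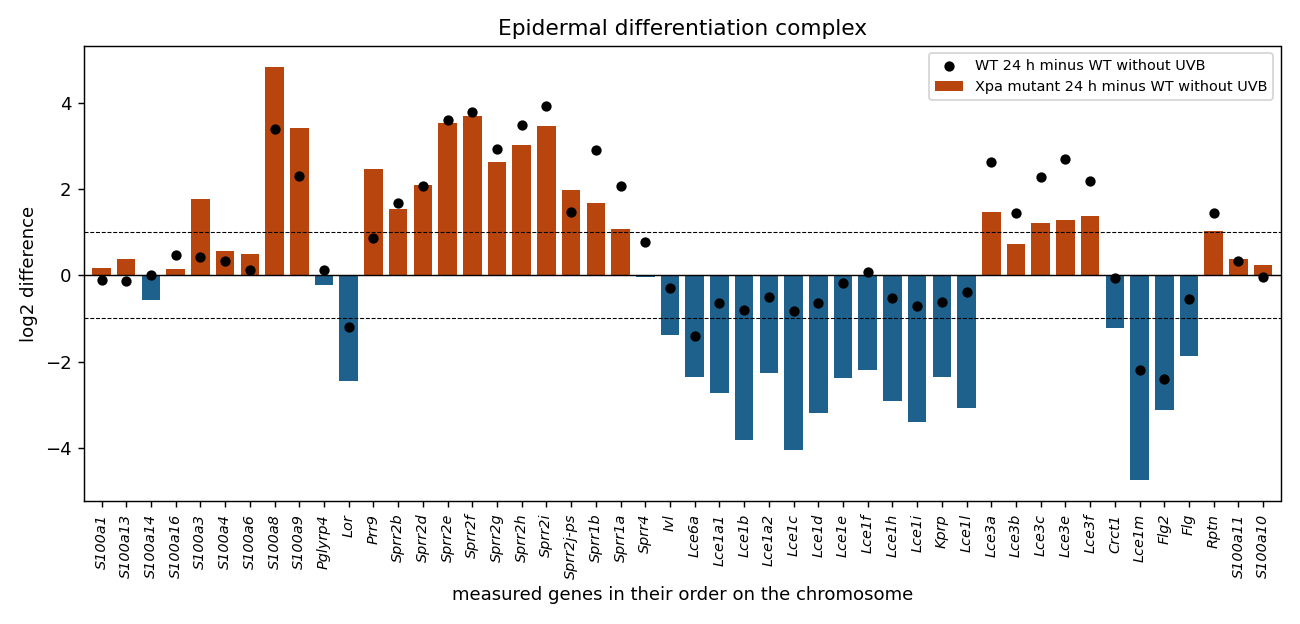
Log2 difference (y axis) from the unirradiated WT array for the 48 measured genes of the epidermal differentiation complex, in their order on the chromosome (x axis). Bars show the Xpa mutant at 24 h (orange above 0, blue below) and black points WT at 24 h, which shares the unirradiated array; dashed lines mark 1 and -1. The Sprr2 genes are high in both, and the bars of the Lce1 genes reach from -2.19 to -4.75.

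Small proline-rich genes were measured for 11 of 12 with a probe, of which 10 were higher by 2-fold or more and 0 lower (median 2.09, and 1.73 with dim genes at their bounds). Sprr2f was 6.61 without UVB, 8.20 in WT and 7.19 in the mutant at 3 h, 10.39 in WT at 24 h and 10.29 in the mutant at 24 h. Sprr2h was 8.01 without UVB, 10.86 and 9.95 at 3 h, 11.48 in WT at 24 h and 11.02 in the mutant. For both genes the 2 arrays at 24 h were the highest, and for Sprr2h WT at 3 h lay closer to the mutant at 24 h than WT at 24 h did. Sprr2e and Sprr2i were higher by at least 8.41-fold and 4.91-fold, and Sprr1b 3.21-fold, with 11.45 in the mutant and 12.68 in WT at 24 h. The log2 differences of Sprr2b, Sprr2d, Sprr2g and Sprr2j-ps were 1.54, 2.09, 2.63 and 1.99. Sprr4 did not follow, with a difference of -0.03.

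Late envelope genes of group 1 were the lowest family. Lce1m was 12.14 without UVB, 11.55 and 12.18 in WT and mutant skin at 3 h, 9.94 in WT at 24 h and 7.39 in the mutant at 24 h. Lce1c was 11.21, 10.64, 11.02 and 10.38 on the same 4 arrays and 7.17, below background, in the mutant at 24 h, at least 16.4-fold lower. Lce1b, Lce1i and Lce1d were 14.1-fold, 10.5-fold and 9.07-fold lower. All measured Lce1 genes were past 2-fold, and the difference for Lce1f, the smallest, was -2.19, beside 0.07 in WT at 24 h. The Lce3 genes had smaller differences in the mutant than in WT at 24 h. Lce3c was 2.32-fold higher in the mutant, with log2 differences from the unirradiated array of 1.21 in the mutant and 2.27 in WT, and Lce3a had 1.46 and 2.62.

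Promoters of a Sprr2 pair and of Lce1c are shown to set these neighbouring families side by side, with AP-1 motifs (TGANTCA on either strand) in capitals. AP-1 is the factor family of Fos and Jun proteins that responds to UVB. The motif was found in the promoters of 6 of 6 measured Sprr2 genes that had one in the table and of 0 of 10 Lce1 genes and 0 of 5 Lce3 genes, beside 7.81% of all promoters, 5.93% of those of the genes compared, 11.9% of those of the higher genes and 8.04% of those of the lower genes. The Sprr2 promoters are themselves related sequences and so are not independent. They also count among the promoters of the higher genes, so the 11.9% is not separate from them. The windows are RefSeq, GRCm38.p6, plus strand: chr3:92364937-92365236 for Sprr2f, chr3:92385435-92385734 for Sprr2h and chr3:92678997-92679296 for Lce1c. In Sprr2f and Sprr2h the match begins at positions -197 and -198 from the gene start.
Sprr2f: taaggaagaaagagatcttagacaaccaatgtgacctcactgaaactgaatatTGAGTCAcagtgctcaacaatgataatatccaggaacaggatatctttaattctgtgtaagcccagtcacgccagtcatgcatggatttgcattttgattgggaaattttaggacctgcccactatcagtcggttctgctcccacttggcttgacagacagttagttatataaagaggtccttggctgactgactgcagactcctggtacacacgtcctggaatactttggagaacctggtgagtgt
Sprr2h: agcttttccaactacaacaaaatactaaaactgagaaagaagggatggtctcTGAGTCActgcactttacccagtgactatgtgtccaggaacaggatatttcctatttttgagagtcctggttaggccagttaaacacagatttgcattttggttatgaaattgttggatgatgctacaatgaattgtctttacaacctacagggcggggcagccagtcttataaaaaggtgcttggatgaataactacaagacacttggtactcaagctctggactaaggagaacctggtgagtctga
Lce1c: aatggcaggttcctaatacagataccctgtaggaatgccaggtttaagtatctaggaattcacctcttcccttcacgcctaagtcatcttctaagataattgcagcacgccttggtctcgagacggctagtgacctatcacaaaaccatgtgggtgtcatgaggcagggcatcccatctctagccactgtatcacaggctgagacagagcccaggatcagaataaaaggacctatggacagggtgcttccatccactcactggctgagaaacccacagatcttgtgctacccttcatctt

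The list of cornified layer genes includes the Lce1 genes. Of 37 with a probe 31 were measured, 3 were higher by 2-fold or more and 19 lower, with a median of -1.87, and of -1.91 over the 22 above background on both arrays. Lor, which encodes loricrin, the main envelope protein, was 10.83 without UVB, 10.42 and 10.71 at 3 h in WT and mutant skin, 9.64 in WT at 24 h and 8.38 in the mutant, 5.46-fold lower. Flg, the filaggrin gene whose product packs keratin filaments, was 12.82 without UVB, 12.28 in WT at 24 h and 10.95 in the mutant. Its relative Flg2 was at least 8.69-fold lower, with 8.05 in WT at 24 h. Asprv1, the protease that processes filaggrin, was 3.86-fold and Cdsn, the corneodesmosome adhesion gene, 2.02-fold lower. The differentiation keratin gene Krt78 was 5.23-fold lower. The higher genes were Rptn, the repetin gene, 2.04-fold, and Lce3e and Lce3f. Tgm1, the transglutaminase that cross-links the envelope, had a difference of -0.03. In WT at 24 h, which shares the unirradiated array, 5 of 30 measured genes of this list were lower and 4 higher (background 2.28% and 2.49%, 4.77% in all), with a median of -0.41. Against WT at 24 h, 18 of 31 were lower by 2-fold or more in the mutant and 0 higher, with a median of -1.14.

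Of the 4 keratins of wounded skin 3 were higher by 2-fold or more and 0 lower. Krt6a was 7.72 without UVB, 9.30 and 9.24 in WT and mutant skin at 3 h, 12.45 in WT at 24 h and 11.32 in the mutant. Krt16, its partner, was 9.66, 12.55, 11.59, 14.15 and 12.85 on the same arrays, 9.15-fold higher in the mutant at 24 h than without UVB. For both genes, and for Krt6b (2.64-fold higher) and Krt17 (1.4-fold), the WT array at 24 h was the highest of the 5. All 4 were lower by 2-fold or more in the mutant than in WT at that time. Cross-hybridization between Krt6a and Krt6b, which are near copies, was not tested.

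Most genes of the living epidermal layers were short of 2-fold. Of 26 spinous and basal genes with a probe 23 were measured, with a median of -0.48. Of these 1 was higher and 5 lower, beside 3.28% and 3.96% of all genes compared. The spinous keratin genes Krt10 and Krt1 were 2.96-fold and 2.48-fold lower, with mutant levels at 24 h of 12.46 and 11.98 beside 12.61 and 11.80 in WT. The basal keratin gene Krt5 was 2.06-fold lower, and its partner Krt14 had a difference of -0.16. Dst, the gene of a linker between keratin and hemidesmosomes, was 2.66-fold lower. The desmosome cadherin gene Dsg3 was at least 2.01-fold higher. Among 15 junction genes 0 were higher and 3 lower. Among the lower ones were the gap junction gene Gjb5, at least 2.77-fold, and Ppl, which encodes the envelope protein periplakin, 2.86-fold.

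Genes of the sebaceous gland were lower for the most part. Of 17 sebaceous gland genes with a probe 14 were measured, 9 were lower by 2-fold or more in measured value and 0 higher, with a median of -1.05, and of -1.03 over the 10 above background on both arrays. Far2, which makes fatty alcohols for wax, was 9.58 without UVB, 8.93 and 8.51 in WT and mutant skin at 3 h, 8.98 in WT at 24 h and 6.43, below background, in the mutant, at least 5.81-fold lower. Elovl3, an elongase of sebum fatty acids, was 9.27 without UVB, 10.20 in WT at 24 h and 8.19 in the mutant. The elongase gene Elovl4, needed for the very long chains of barrier ceramides, was 2.48-fold lower and Fa2h, a fatty acid hydroxylase gene, 3.35-fold. Plin2, which coats lipid droplets, had a difference of 0.08. Of 20 measured sterol and fatty acid synthesis genes 4 were lower and 0 higher, with a median of -0.56. The elongase gene Elovl6 was 11.65 without UVB, 10.92 in WT at 24 h and 9.05 in the mutant, 6.06-fold lower, and the sterol genes Sqle, Msmo1 and Fdft1 were at least 2.03-fold, 2.28-fold and at least 1.76-fold lower. Fasn, the fatty acid synthase gene, had a difference of 0.09.

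**Figure D4:**
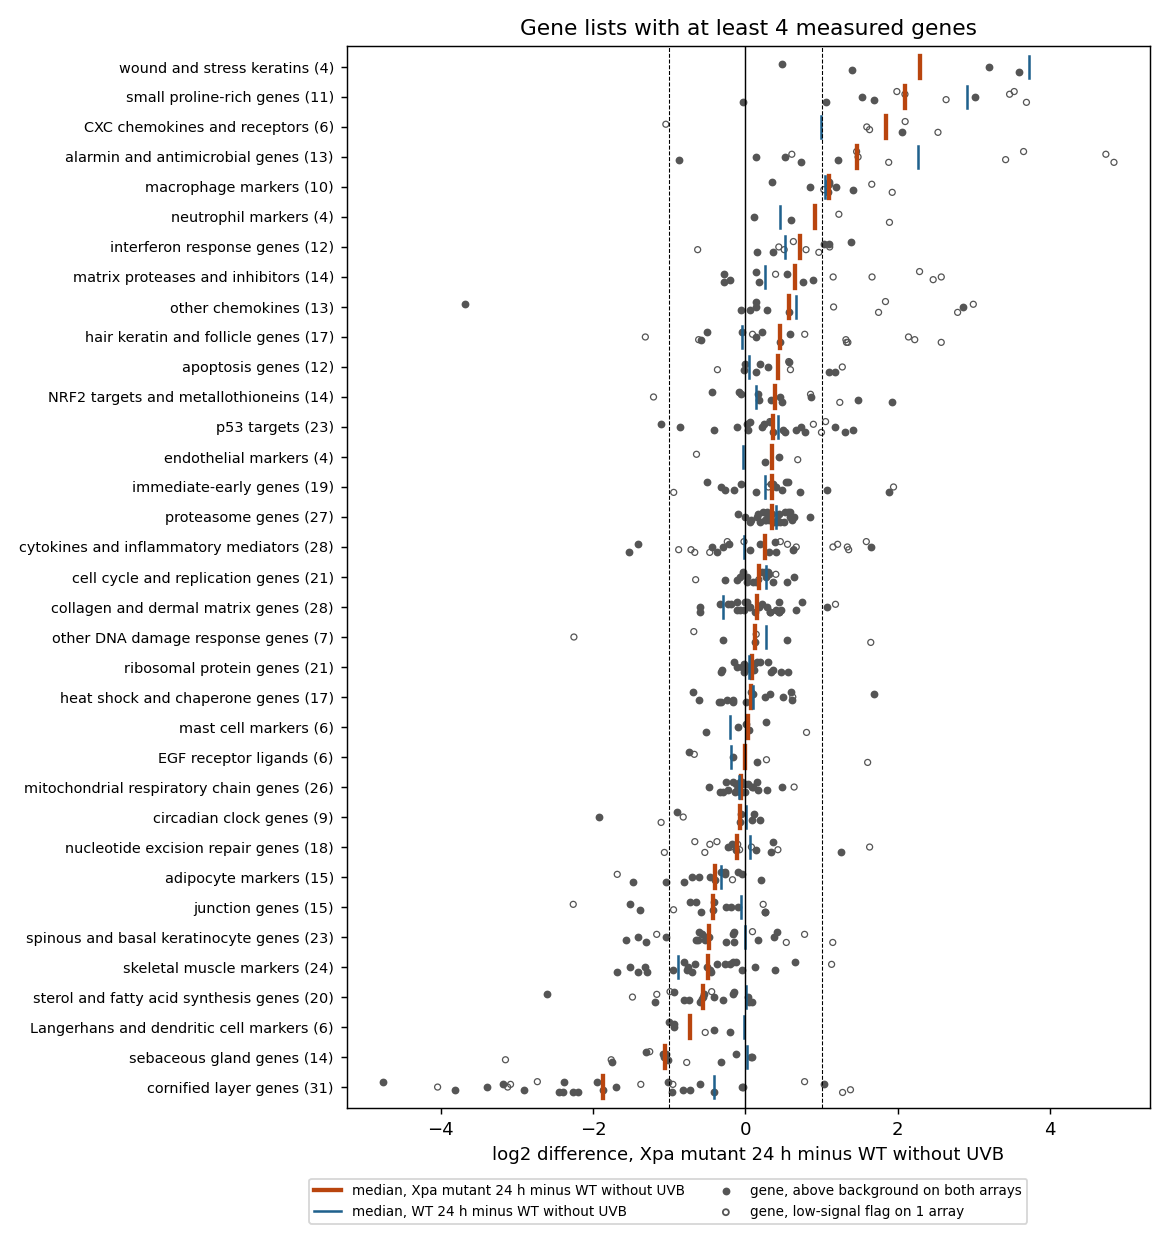
Log2 difference of the Xpa mutant array at 24 h from the unirradiated WT array (x axis) for the measured members of each list with at least 4 of them (y axis, number in brackets), 1 point per gene, open where 1 array carried the low-signal flag. Thick orange bars mark the list's median, thin blue bars the median of the same list in WT at 24 h, which shares the unirradiated array, and dashed lines mark 1 and -1. Wound keratins and small proline-rich genes lie highest, with medians of 2.30 and 2.09, and the cornified layer list lowest, at -1.87.

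Most dermal matrix genes were short of 2-fold. Of 29 collagen and dermal matrix genes with a probe 28 were measured, 2 were higher by 2-fold or more and 0 lower, with a median of 0.15. The fibrillar collagen genes Col1a1 and Col3a1 were 1.5-fold and 1.51-fold lower, and Col1a2 had a difference of -0.07. Col1a2 was 10.80 without UVB, 10.03 and 9.96 at 3 h in WT and mutant skin, 9.18 in WT at 24 h and 10.73 in the mutant. Its mutant 24 h and unirradiated levels were above the other 3. The 2 higher genes, Tnc (2.09-fold) and Vcan (at least 2.16-fold), encode tenascin C and versican, matrix proteins of healing wounds. Matrix protease and inhibitor genes were higher for 5 of 14 measured members and lower for 0, with a median of 0.65, and of 0.16 over the 8 above background on both arrays. Timp1, a metalloprotease inhibitor gene, was 9.10 in the mutant at 24 h, 8.0 in WT at 3 h and below background on the other 3 arrays, at least 4.25-fold above unirradiated skin. The stromelysin gene Mmp3 and the macrophage elastase gene Mmp12 were higher by at least 3.70-fold and 1.69-fold.

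Some markers of deeper tissue were lower beside these results. Of 24 measured skeletal muscle markers 5 were lower by 2-fold or more and 1 was higher, with a median of -0.49, and their summed level was 90595 intensity units without UVB, 49845 in WT at 24 h and 58480 in the mutant at 24 h. The myosin light chain gene Myl1 was 3.23-fold lower, at 9.64 in the mutant beside 9.58 in WT at 24 h. The 15 measured adipocyte markers, 3 of them lower and 0 higher, had a median of -0.40, and among them was the triglyceride synthesis gene Dgat2 (2.77-fold). Their summed level was 18755 without UVB and 14976 in the mutant. Whether the depth of the skin pieces had a part in any result was not tested. Apobec2, a muscle gene related to cytidine deaminases, was higher by at least 5.36-fold, against the direction of the muscle list. Its mutant levels were 8.72 at 3 h and 9.43 at 24 h, and it was below background on all 3 WT arrays.

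Most damage response genes were short of 2-fold. Of 23 measured p53 targets 4 were higher by 2-fold or more and 1 lower, beside 3.28% and 3.96% of all genes compared. Their median was 0.36. Cdkn1a, which encodes the cell cycle inhibitor p21, was 9.86 without UVB, 10.92 and 10.71 in WT and mutant skin at 3 h, 10.93 in WT at 24 h and 11.17 in the mutant. The 4 irradiated arrays thus lay close together, above the unirradiated one. The kinase gene Plk2 and the apoptosis gene Bax were 2.67-fold and 2.27-fold higher, and the nuclease gene Aen at least 1.4-fold. The stress gene Sesn1 was 2.15-fold lower, and Mdm2, the feedback inhibitor of p53, was below background or masked on both arrays. Among 18 measured nucleotide excision repair genes 2 were higher, Gtf2h5 (2.38-fold) and Ccnh (at least 1.41-fold), which encode parts of the TFIIH complex, and Xpa alone was lower. Gtf2h5 was 13.09 in WT at 24 h and 11.95 in the mutant. Of 12 measured apoptosis genes 3 were higher and 0 lower: Bax, and the inflammatory caspase genes Casp1 (2.13-fold) and Casp4 (at least 1.56-fold).

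Stress and early response genes were higher in part. Of 19 measured immediate-early genes 3 were higher and 0 lower, with a median of 0.35. Ier3, an early response survival gene, was 3.69-fold higher and Junb, an AP-1 subunit gene, at least 3.03-fold, with 8.61 on both arrays at 24 h. Of 14 measured antioxidant and metallothionein genes 3 were higher and 1 lower. The antioxidant genes Hmox1 and Prdx1 had differences of 0.17 and 0.33. The metallothionein genes Mt1 and Mt2, which bind zinc and other metals, were 3.80-fold and 2.78-fold higher. Mt1 was 11.67 without UVB, 13.64 and 12.70 in WT and mutant skin at 3 h, 11.81 in WT at 24 h and 13.59 in the mutant, so the WT array at 24 h was near the unirradiated one and the mutant was not. Mt4, the metallothionein of differentiated squamous epithelium, was at least 2.31-fold lower. Hsp90aa1, the stress-inducible chaperone gene, was 3.23-fold higher, the only member past 2-fold of 17 measured heat shock and chaperone genes. Hbegf, a ligand of the EGF receptor, was at least 2.68-fold higher. It was the only member past 2-fold of 6 measured EGF receptor and ligand genes, whose median was -0.004. Odc1, the rate-limiting enzyme of polyamine synthesis, was 4.79-fold higher, at 8.52 without UVB and 10.79 in the mutant.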

How the data were processed

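Skin RNA of 5 samples was measured on 5 one-colour CodeLink oligonucleotide arrays, 1 per group, labelled with Cy5, per the labels. The deposited scanner tables hold linear intensity values from CodeLink Expression Analysis, per the file headers: spot mean, local background median, raw intensity and a quality flag. Raw intensity was within 0.01 of spot mean minus background in 180603 of 180603 unmasked spots. The authors' deposited normalized table has a median of 46.26 in every column, a floor of 0.001 and no centring, and equals the series matrix in 181135 of 181135 cells; the step that made it is not described in them.

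Raw spot and background values went through limma's normexp correction (version 3.58.1, R 4.3.3; saddle-point, offset 50, fitted on all unmasked spots). The gene probes of the 5 arrays were quantile normalized and log2 was taken. Fits were checked on simulated data. Later steps used Python 3.11.15, numpy 2.4.6 and pandas 2.3.3. A gene was represented by its brightest member probe over the 2 arrays; in 7 of 542 genes with several, one probe was past 2-fold and another had the opposite sign. Of the 10045 member probes 7715 were named by the platform annotation, 240 by a RefSeq accession, 230 had several symbols and 1860 stayed unnamed. A bound sets the brighter value against the higher of the dim value and the lowest value above background on that array. Of 894 listed symbols 823 had a probe. Named genes were the 10 highest and 10 lowest differences and bounds, list members with the largest differences and a fixed set of genes; other genes were named after their values were seen. Members and lists were chosen with earlier results of these data known. The number of arrays limits the precision. Alternatives to background correction, scaling, filters and probe choice are given at the close. The values of 1 listed gene are not reported here.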

Additional observations from a re-analysis of the deposited data

How the results depend on the processing

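No paired analysis was possible because each group had 1 array and no test was made. The counts of 242 higher and 292 lower genes moved by over 1.5 times under these settings. Without background correction they were 125 and 168, with plain subtraction and a floor of 1 they were 487 and 601, with an offset of 16 they were 394 and 472, and in the authors' deposited table, floored at 1, they were 479 and 609. Scaled to the spiked controls they were 96 and 929, and the median of hair keratin and follicle genes (-0.00844) and the median of apoptosis genes (-0.0454) changed sign, as did every other list median between 0 and 0.45. Where both arrays had to be above background the counts were 79 and 136. Without probes bearing the flags I, C or P the count of higher genes was 178 and of lower genes 206, and with no filter on dim probes 299 and 349. With the 2 arrays normalized alone they were 243 and 290, with median scaling 224 and 318 and with the mean of a gene's probes 243 and 289. Of 48 genes past 2-fold that were followed across settings, 48 stayed past it in the same direction under plain subtraction, offset 16, normalization of the 2 arrays, median scaling, the authors' deposited table, no filter and the mean of probes. Without background correction 46 did, Xpa (-0.66) and Il1b (0.95) being lost, and with the spike scaling 45, Il1b (0.93), Cdkn1a (0.79) and Krt6b (0.89) being lost. Why the counts moved was not tested. Signal over background limits the result, since 24817 gene probes were below background on both arrays.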

Other observations

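Of 17 measured hair keratin and follicle genes 6 were higher than in unirradiated WT skin by 2-fold or more in measured value, all of them dim there, and 1 lower, with a median of 0.45 and of 0.14 over the 7 above background on both arrays. The inner root sheath keratin gene Krt25 was 6.84 without UVB, 9.69 in WT and 11.06 in the mutant at 3 h, 7.98 in WT at 24 h and 9.41 in the mutant at 24 h. Outside the list, S100a3, an S100 gene of the hair cuticle, had 6.30, 8.13, 9.67, 6.73 and 8.08 on these arrays, and Prr9, a proline-rich gene of the epidermal differentiation complex, had 5.93, 8.35, 9.87, 6.80 and 8.39; both were picked after their values were seen. In all 3 genes the mutant array at 3 h was the highest and the unirradiated array the lowest.

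Interferon response genes were higher for 4 of 12 measured members and lower for 0, with a median of 0.71. Setting the dim genes to their bounds gave 0.48, and the median was 1.04 over the 5 above background on both arrays. Ifitm3, a membrane protein gene that blocks virus entry, was 2.60-fold, the tethering factor gene Bst2 2.14-fold and the interferon regulator Irf7 2.05-fold higher. Iigp1, dim without UVB, was at least 1.73-fold higher. Of 27 proteasome genes, all above background on both arrays, 25 had a difference above 0 and 0 were past 2-fold, with a median of 0.34. Ribosomal protein genes had a median of 0.08 over 21, and respiratory chain genes of -0.06 over 26, with 0 past 2-fold in either. Of 9 measured circadian clock genes 2 were lower and 0 higher, with a median of -0.08. The clock-linked nuclear receptor gene Rora was 3.77-fold lower, while Arntl and Clock had differences of -0.08 and 0.09.

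Among 7368 genes that were compared and unmasked on all 5 arrays, 2 had both mutant arrays at least 1 log2 unit above all 3 WT arrays, Apobec2 with a gap of 2.15 and Mup1 with a gap of 1.43, and 0 had both at least that far below. Mup1 lies on the chromosome of Xpa. These genes were picked after their values were seen.

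Several of the lowest genes rest on 1 spot of the unirradiated array. Il22ra2 was 10.81 there and between 6.19 and 6.72, below background, on the other 4 arrays, and Olfr1179 was 10.19 and at most 6.51. Zpld2 was 9.51 and at most 6.97. The software had marked the Zpld2 spot with its flag I, the Olfr1179 spot with its flag C and the Il22ra2 spot with its flags P and C. Pgf, a placental growth factor gene, was different, at 10.49, 9.98, 10.14 and 10.13 on the other arrays and 7.22, below background, only in the mutant at 24 h, at least 9.64-fold lower than without UVB. Cyp2g1, a cytochrome P450 gene, behaved alike, at 9.98 without UVB, 9.61 in WT at 24 h and 7.03, below background, in the mutant at 24 h.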
